A study of Mus musculus with 6 samples.

Results

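The 9 genes described here, Ptgds, Slc6a13, Aldh1a2, Foxc1, Foxc2, Foxd1, Zic1, Zic2 and Zic4, are genes of the meninges, chosen by name from the 24346 gene names measured in each library, and all 9 passed the filter on low values that left 13180 genes for testing. The libraries were made with a stranded messenger RNA kit from calvaria, the roof of the skull, of newborn mice, with the interparietal and occipital bones kept and the ear cartilage left out. There were 3 control libraries, Pth1rfl/fl, with floxed alleles of the gene of the parathyroid hormone receptor, and 3 libraries labelled mutant, Prx1-Cre;Pth1rfl/fl, in which the same floxed alleles were combined with a Cre transgene. Both groups carried the floxed alleles, and the labels give no control with the Cre transgene alone and do not say whether a library came from 1 animal, so p-values measure the spread between these libraries. Prx1-Cre is known to act in mesenchyme of the limb buds and of part of the skull. The series asks about this receptor in skull cartilage and in sutures that fuse early, as its title states.

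The meninges are the membranes between the skull and the brain. The dura lies against the inner face of the bone and parts from it incompletely in dissection, the arachnoid below it forms a barrier with transport proteins, and the pia covers the brain. Meningeal cells carry transcription factors of the Fox and Zic families, some of which are also found in the mesenchyme of the sutures, and they secrete retinoic acid and other signals that reach bone and brain.

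The values are FPKM, which count fragments per length of transcript and per total mapped. Pth1r itself was not reduced under the mutant label, at 89.2, 93.3 and 102 FPKM in controls against 127, 125 and 142 FPKM (adjusted p = 0.065, from limma, a linear model over all tested genes, after the Benjamini-Hochberg procedure, BH), so directions below follow the labels. Read totals are unknown, but the lowest values step by single fragments, which gave relative depths from 0.703 to 0.972 for the other libraries with control 1 set to 1. Correlations of log2 values over tested genes were 0.971 to 0.979 for pairs of 1 group and 0.967 to 0.977 for pairs across groups. Control 1 stands apart from the other libraries in part of the meningeal genes, and the values of Ptgds, Slc6a13 and Aldh1a2 are given with and without it. It was singled out from these same values, so the fits without it are a description and not an independent test.

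The 9 genes fell into 2 sets by the library in which they were lowest. Ptgds, Slc6a13 and Aldh1a2, which encode enzymes and a transporter, were lowest in control 1. Each was there at under 0.5 times the mean of controls 2 and 3, Aldh1a2 only just so at 0.486 times. Aldh1a2 spanned 2.47-fold, against 14.0-fold for Ptgds and 7.94-fold for Slc6a13, and was highest in the libraries labelled mutant. The 6 transcription factor genes kept within a 1.86-fold range over all libraries and were lowest in library 2 labelled mutant. None of the 9 passed the test between groups at a BH-adjusted p under 0.05 in limma, where 0.607% of all tested genes passed, 0.524% higher and 0.0835% lower. Of the 9, 4 had an unadjusted p under 0.05 in that fit, as did 10.5% of all tested genes. In whole tissue, fewer meningeal cells and less RNA per cell cannot be told apart.

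**Figure D1:**
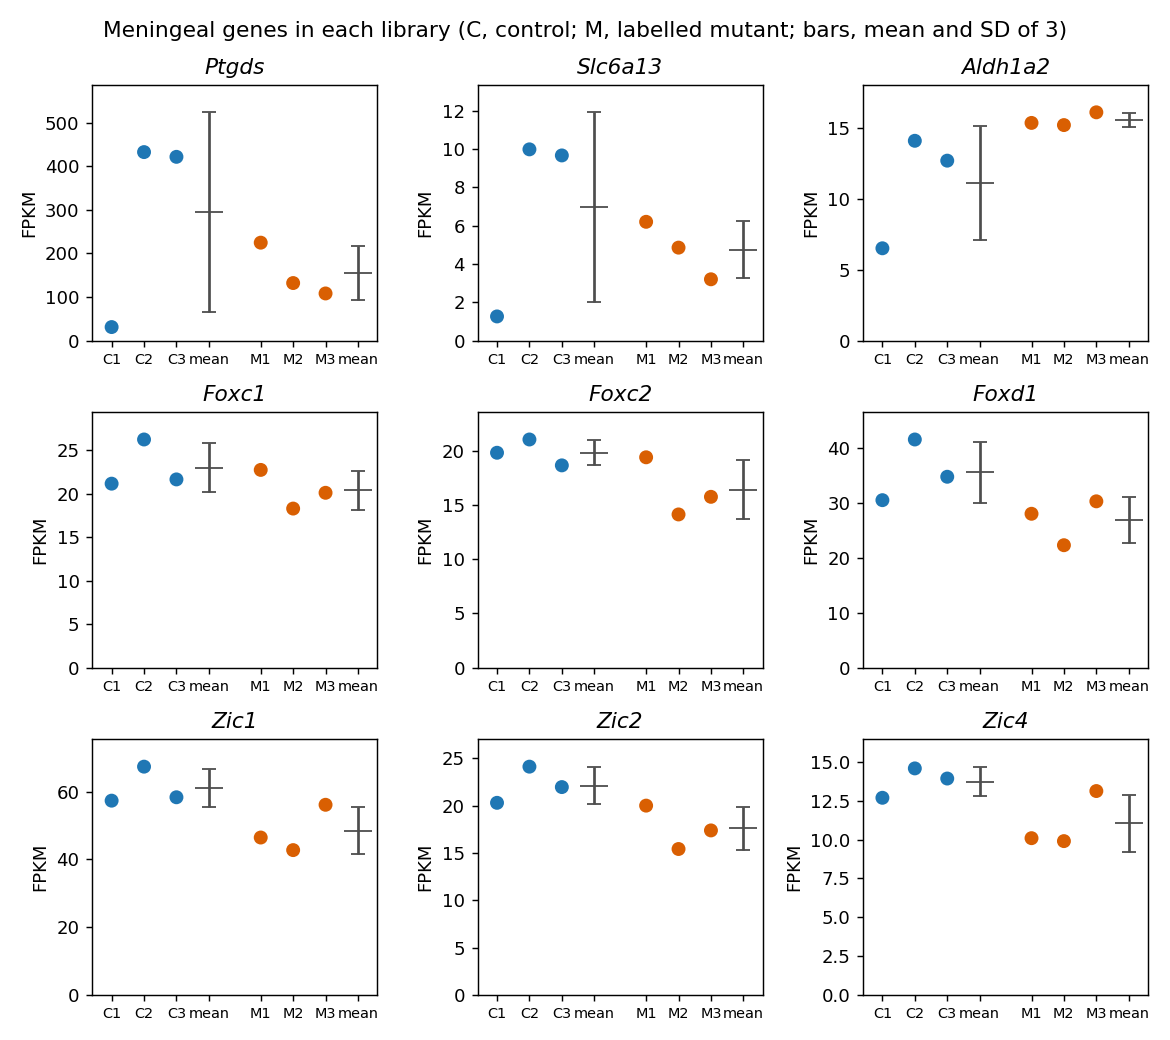
FPKM of the 9 meningeal genes in each library, on linear axes from 0, with controls in blue and libraries labelled mutant in orange, and the mean and SD of 3 libraries beside each group. Ptgds is at 30.9 FPKM in control 1 and at 432 and 422 FPKM in controls 2 and 3, while the Fox and Zic genes span less than 1.9-fold.

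Ptgds encodes lipocalin-type prostaglandin D synthase, an abundant secreted product of the arachnoid and pia that makes prostaglandin D2 and also carries lipids. The gene spans chr2:25466709-25470046 on the minus strand in GENCODE M21 on GRCm38, the source of all gene spans given here. Its value was 30.9, 432 and 422 FPKM in the controls and 225, 132 and 108 FPKM in the 3 labelled mutant. Control 1 was the lowest and controls 2 and 3 the highest, so the groups overlapped. The means were 295 ± 229 and 155 ± 61.6 FPKM (SD, n = 3 each), a ratio of 0.525. The log2 change was -0.28 ± 0.97 (SE), with a 95% interval from -2.58 to 2.02 (BH-adjusted p = 0.958, limma). An exact two-sided permutation test of the mean log2 values gave p = 1. Controls 2 and 3 averaged 13.8-fold more than control 1 and 2.76-fold more than the libraries labelled mutant. Without control 1 the log2 change was -1.53 ± 0.29 (SE), with a 95% interval from -2.23 to -0.82, and it did not pass either (BH-adjusted p = 0.162, unadjusted p = 0.00175, limma). Control 1 was left out for its low value, which by itself makes that interval narrow. Leaving out control 2 or control 3 instead gave a log2 change of 0.35 or 0.34. Its spread within groups, an SD of 1.58 on the log2(FPKM + 1) scale, lay at percentile 99.6 of all tested genes, whose median was 0.11.

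Slc6a13 encodes a transporter of GABA and taurine known from the meninges and from liver and kidney, and spans chr6:121300227-121337733 on the plus strand. It had 1.26, 9.99 and 9.67 FPKM in the 3 controls and 6.20, 4.85 and 3.20 FPKM in the 3 labelled mutant. These put the 6 libraries in the same order as Ptgds, from control 1 up through libraries 3, 2 and 1 labelled mutant to controls 3 and 2. That order was held by 2 of the 9 genes, Ptgds itself being one, and by 0.137% of all tested genes. The group means were 6.97 ± 4.95 and 4.75 ± 1.504 FPKM (SD, n = 3 each). The log2 change was -0.19 ± 0.60 (SE), with a 95% interval from -1.61 to 1.22 (BH-adjusted p = 0.952, limma), and the exact permutation p was 0.9. Without control 1 it was -0.95 ± 0.22 (SE), with an interval from -1.48 to -0.42 (BH-adjusted p = 0.229, limma). Within each library, Ptgds had between 24.5 and 43.6 times the FPKM of Slc6a13, a far narrower range than the 14.0-fold and 7.94-fold spans of the 2 genes themselves.

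The stretches before the start sites of Ptgds and Slc6a13 are shown because these 2 genes held the same order of libraries. They are the 250 bases before the RefSeq start on GRCm38.p6, at chr2:25469750-25469999 on the minus strand and at chr6:121300038-121300287 on the plus strand, which for Slc6a13 is the first of 3 RefSeq starts. The Ptgds window lies inside the GENCODE span of Ptgds, and the Slc6a13 window partly inside that of Slc6a13. Capitals mark the run TAAATAG.
Ptgds: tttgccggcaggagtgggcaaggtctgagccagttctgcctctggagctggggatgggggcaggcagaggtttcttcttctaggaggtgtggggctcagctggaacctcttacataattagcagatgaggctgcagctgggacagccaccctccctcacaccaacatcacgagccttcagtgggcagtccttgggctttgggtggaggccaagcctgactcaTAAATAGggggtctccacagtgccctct
Slc6a13: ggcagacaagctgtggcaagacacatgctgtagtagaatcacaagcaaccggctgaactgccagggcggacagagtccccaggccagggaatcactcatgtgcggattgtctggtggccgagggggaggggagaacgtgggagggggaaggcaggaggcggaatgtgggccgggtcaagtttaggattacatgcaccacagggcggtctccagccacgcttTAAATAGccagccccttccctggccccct
The run begins 28 bases before the start in Ptgds and 29 bases before it in Slc6a13. It was picked after the sequences were seen, resembles a TATA box, and occurs on either strand in 2.63% of all 32851 RefSeq windows of this length. The other motifs searched on both strands were not found in these 2 windows. They were the TATA box TATAAA, in 12.4% of all windows, the CCAAT box, in 33.8%, and the E-box CACGTG, in 6.02%. The forkhead core TAAACA occurs in 12.03% and the retinoid receptor element AGGTCA in 14.02% of all windows. The windows of the later Slc6a13 starts, not shown, both lack the run TAAATAG. The window at chr6:121300490-121300739 holds a CCAAT box, and that at chr6:121303389-121303638 holds AGGTCA on the opposite strand.

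Aldh1a2, at chr9:71215789-71296243 on the plus strand, encodes retinaldehyde dehydrogenase, which makes retinoic acid and is known from the meninges. It had 6.50, 14.1 and 12.7 FPKM in the 3 controls and 15.3, 15.2 and 16.1 FPKM in the 3 labelled mutant. Control 1 was again the lowest, but the libraries labelled mutant all lay above the controls, unlike for Ptgds and Slc6a13. The means were 11.1 ± 4.03 and 15.5 ± 0.48 FPKM (SD, n = 3 each), a ratio of 1.401. The log2 change of 0.52 ± 0.24 (SE) had a 95% interval from -0.06 to 1.09 and did not pass (BH-adjusted p = 0.545, limma). The exact permutation test gave p = 0.1, the smallest p that 3 libraries against 3 allow. Without control 1 the log2 change was 0.20 ± 0.08 (SE; BH-adjusted p = 0.428, limma). Relative to Slc6a13 in the same library, Aldh1a2 stood at 5.16, 1.41 and 1.31 in controls and at 2.47, 3.13 and 5.03 in the libraries labelled mutant, so the 2 genes did not keep a fixed ratio.

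Among the forkhead genes, Foxc1 (chr13:31806633-31812476, plus strand) is needed in mice for the meninges and for the bones of the skull roof. It had 21.1, 26.2 and 21.6 FPKM in the 3 controls and 22.7, 18.3 and 20.1 FPKM in the 3 labelled mutant. The groups overlapped, and its log2 change was -0.17 ± 0.11 (SE; 95% interval -0.42 to 0.09; BH-adjusted p = 0.686, limma). Foxc2 (chr8:121116171-121118895, plus strand), its close relative in skeletal and vascular mesenchyme, had 19.8, 21.03 and 18.6 FPKM in controls. The libraries labelled mutant had 19.4, 14.1 and 15.7 FPKM, of which library 1 lay among the controls. Its log2 change was -0.27 ± 0.11 (SE; 95% interval -0.54 to 0.00; BH-adjusted p = 0.478, limma). Foxd1 (chr13:98354242-98359305, plus strand), a factor of meningeal and stromal progenitors, had 30.5, 41.6 and 34.8 FPKM in the 3 controls and 28.03, 22.3 and 30.3 FPKM in the 3 labelled mutant. The groups touched without overlapping, with control 1 just above library 3 labelled mutant. Its log2 change of -0.39 ± 0.14 (SE) was the lowest of the 9 and did not pass (95% interval -0.73 to -0.05; BH-adjusted p = 0.382, limma).

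The Zic genes encode zinc finger factors of the dorsal neural tube and the meninges, and Zic1 is also found in suture mesenchyme. Zic1 had 57.3, 67.3 and 58.3 FPKM in the 3 controls and 46.4, 42.7 and 56.1 FPKM in the 3 labelled mutant. Library 3 labelled mutant came close to the lowest control, and the groups did not overlap. The means were 61.0 ± 5.53 and 48.4 ± 6.90 FPKM (SD, n = 3 each), a ratio of 0.794. The log2 change was -0.33 ± 0.11 (SE; 95% interval -0.60 to -0.07; BH-adjusted p = 0.336, limma). Zic2 (chr14:122475435-122479852, plus strand) had 20.3, 24.1 and 21.97 FPKM in the 3 controls and 20.01, 15.4 and 17.4 FPKM in the 3 labelled mutant. It had the smallest p of the 9 genes, with groups that did not overlap and a log2 change of -0.32 ± 0.11 (SE; 95% interval -0.57 to -0.07; BH-adjusted p = 0.322, limma). Zic4 had 12.7, 14.6 and 13.9 FPKM in the 3 controls and 10.1, 9.91 and 13.1 FPKM in the 3 labelled mutant. Library 3 labelled mutant exceeded control 1, so the groups overlapped, and the log2 change was -0.30 ± 0.11 (SE; 95% interval -0.57 to -0.03; BH-adjusted p = 0.405, limma).

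Zic1 and Zic4 are neighbours on chromosome 9 that are read in opposite directions. Zic1 had between 4.18 and 4.61 times the FPKM of Zic4 in every library. So steady a ratio was not particular to the pair. In likeness of profile, a measure described below, Zic4 was at rank 7 to Zic1 and Zic1 at rank 8 to Zic4. Zic1 spans chr9:91358058-91365810 on the minus strand and Zic4 chr9:91362413-91389348 on the plus strand, with 60 exon bases in common, and Zic4 shares 468 exon bases with the predicted gene Gm37477. Whether the counting used strand is not stated in the labels, so reads from those bases cannot be assigned to 1 gene with certainty. Their RefSeq start sites lie 3204 bases apart, and the 250 bases before each are shown for this neighbour pair, at chr9:91365769-91366018 on the minus strand and chr9:91368722-91368971 on the plus strand. Capitals mark the CCAAT box and the E-box CACGTG.
Zic1: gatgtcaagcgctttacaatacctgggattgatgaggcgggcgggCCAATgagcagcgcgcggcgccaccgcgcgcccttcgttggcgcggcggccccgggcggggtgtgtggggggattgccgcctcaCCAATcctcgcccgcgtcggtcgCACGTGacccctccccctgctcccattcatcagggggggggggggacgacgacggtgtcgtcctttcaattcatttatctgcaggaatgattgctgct
Zic4: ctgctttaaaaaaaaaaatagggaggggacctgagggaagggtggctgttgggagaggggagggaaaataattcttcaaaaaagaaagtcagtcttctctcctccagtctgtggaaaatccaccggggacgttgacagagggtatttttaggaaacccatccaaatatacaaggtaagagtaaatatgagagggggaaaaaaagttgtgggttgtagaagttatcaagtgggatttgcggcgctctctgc
The Zic1 window holds CCAAT at 205 and 121 bases before its start and CACGTG at 98 bases before it, and the Zic4 window holds none of the motifs searched. The longest identical stretch between transcripts of Zic1 and Zic4 is 42 bases, that between Zic1 and Zic2 is 35 bases, and that between Foxc1 and Foxc2 is 53 bases.

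By mean level, the order was Ptgds, Zic1, Foxd1, Foxc1, Zic2, Foxc2, Aldh1a2, Zic4 and Slc6a13, from 225 FPKM down to 5.86 FPKM over the 6 libraries. In control 1, where Ptgds was low, Zic1 was the highest of the 9. Over the groups, 3 of the 9 had controls that all lay above the libraries labelled mutant, namely Foxd1, Zic1 and Zic2, as did 6.79% of all tested genes. Aldh1a2 alone lay wholly above, as did 9.34% of all tested genes. A negative log2 change was found for 8 of the 9 and for 49.5% of all tested genes, with a median of -0.28 over the 9 and 0.00 over all tested genes. The exact permutation p was 0.1 for Foxd1, Zic1 and Zic2, the smallest that this design allows, and 0.2 for Foxc2 and Zic4 and 0.3 for Foxc1.

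**Figure D2:**
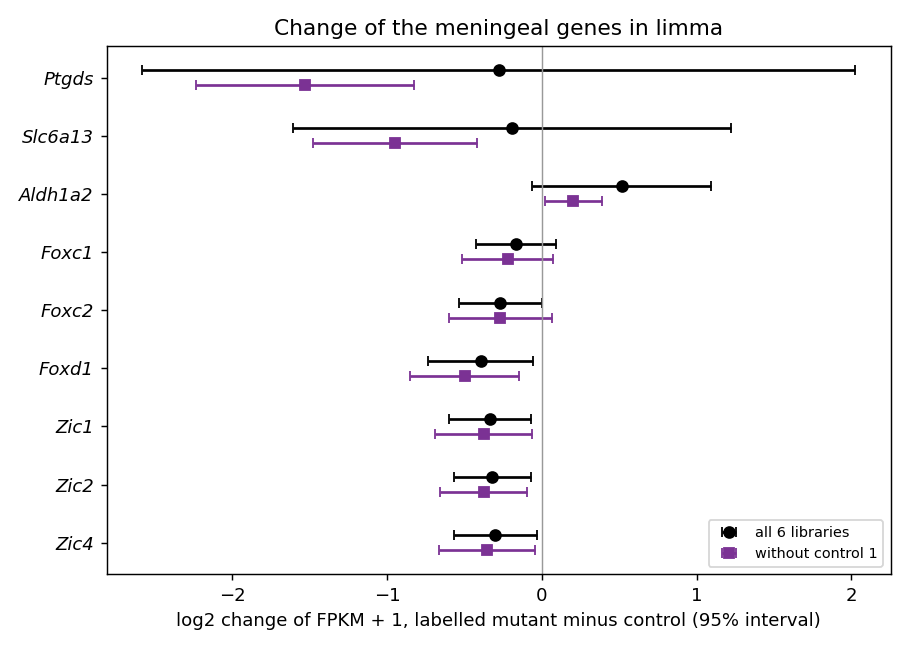
Log2 change of FPKM + 1, libraries labelled mutant minus controls, for each of the 9 genes in limma, as points with 95% intervals, with all 6 libraries (black circles) and without control 1 (purple squares). Leaving out control 1 moves Ptgds from -0.28 to -1.53 and Slc6a13 from -0.19 to -0.95, and moves the Fox and Zic genes far less.

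Profiles were compared by the root mean square difference of log2(FPKM + 1) values, each gene centred on its own mean over the 6 libraries. The most alike gene to Ptgds among all tested genes was Slc6a13 (0.51), followed by Slc6a20a (0.55), a transporter of proline and related amino acids, and Snhg9 (0.71), a small noncoding RNA host gene. The most alike to Slc6a13 were Slc6a20a (0.13), Snhg9 (0.36) and Slc22a8 (0.36), an organic anion transporter of barrier tissue. Ptgds was only at rank 24 to Slc6a13. Slc6a20a had 0.37, 5.04 and 4.90 FPKM in the 3 controls and 2.67, 1.67 and 1.23 FPKM in the 3 labelled mutant, in the library order of Ptgds. The most alike to Aldh1a2 were Bcl3 (0.15), Serpind1 (0.16) and Dusp5 (0.16). This measure also counts the size of the swings, so a gene that varies as much as Ptgds lies far from nearly all genes.

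Other genes of the meninges, 27 in a list of which 24 were tested, were read library by library as well. In control 1, 4 of the 24 were under 0.5 times the mean of controls 2 and 3, as were 3 of the 9 genes and 0.994% of all tested genes. They were Slc6a20a, Slc22a8, Slc13a4 and Cdh1. The last 3 encode an organic anion transporter, a sulfate transporter and an adhesion protein of the arachnoid barrier that is not specific to it. Slc22a8 had 0.28, 2.38 and 2.04 FPKM in the 3 controls and 1.38, 0.58 and 0.64 FPKM in the 3 labelled mutant, with control 1 the lowest. Slc13a4 had 1.19, 3.36 and 3.50 FPKM in the 3 controls and 2.08, 1.85 and 1.49 FPKM in the 3 labelled mutant, all above control 1. Cdh1 had 1.31, 5.64 and 3.89 FPKM in the 3 controls and 2.02, 1.51 and 1.16 FPKM in the 3 labelled mutant, where library 3 was lower still than control 1. Slc22a6, below the filter, had 0.095, 1.06 and 1.35 FPKM in the 3 controls and 0.92, 0.72 and 0.37 FPKM in the 3 labelled mutant. The abundant genes of the list were not low in control 1, with Fxyd5 at 180, 195 and 179 FPKM and S100a6 at 190, 235 and 163 FPKM in the 3 controls. Control 1 was the lowest library for 6 of the 24 and 3 of the 9, against 17.5% of all tested genes. Values of control 1 below those of controls 2 and 3 were not limited to meningeal genes. Control 1 was under 0.5 times the mean of controls 2 and 3 for 4 of 6 inner ear genes tested. Choroid plexus had 2 of 5, skin 2 of 6, neural tissue 2 of 15 and pineal gland 6 of 7. The melanocyte, muscle, bone-forming, cartilage, vessel and suture lists, also described below, had 0.

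Between groups, 0 of the 24 other meningeal genes passed in limma (5 at an unadjusted p under 0.05, against 10.5% of all tested genes), 22 had a negative log2 change, against 49.5% of all tested genes, and their median was -0.26. The smallest p belonged to Ngfr, a neurotrophin receptor. Ngfr had 7.83, 8.77 and 8.05 FPKM in the 3 controls and 5.72, 6.20 and 5.55 FPKM in the 3 labelled mutant, where every value lay below every control (BH-adjusted p = 0.0689, limma). Control 1 lay with the other controls for this gene.

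**Figure D3:**
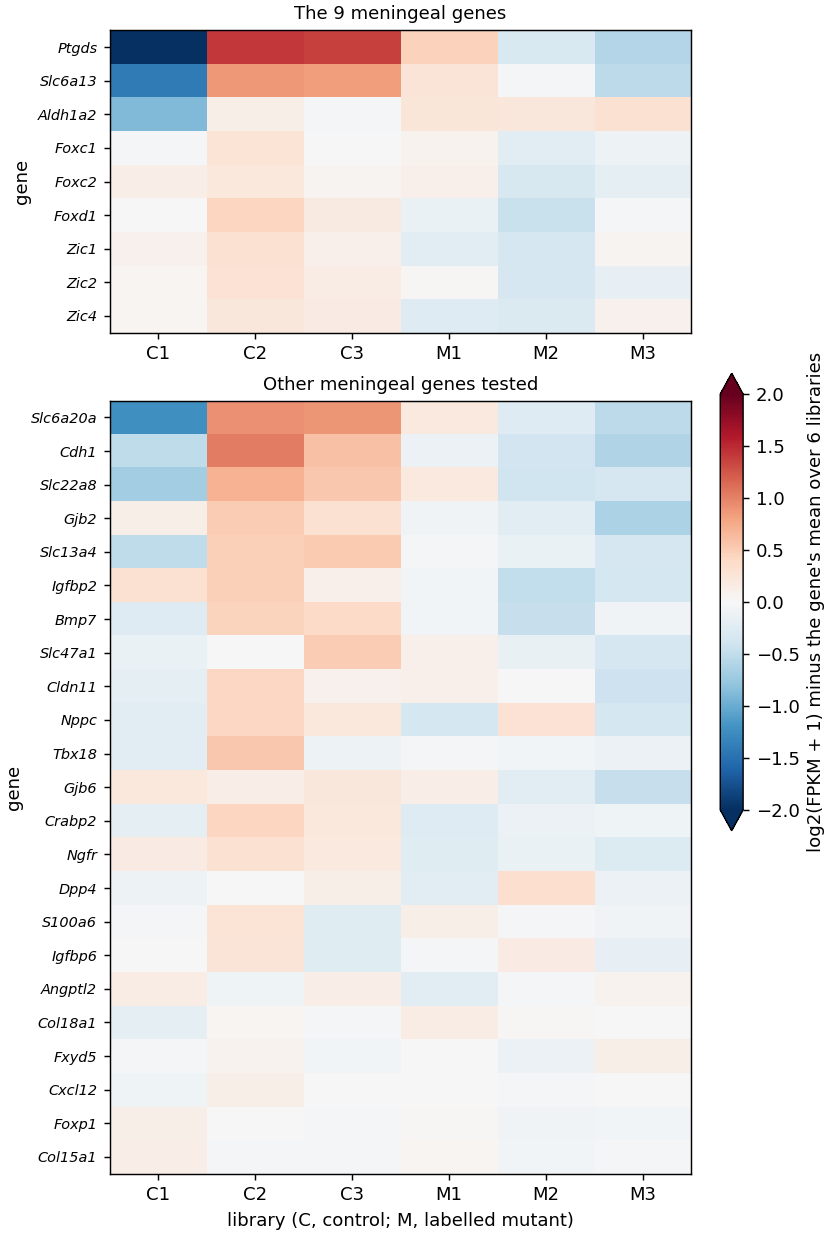
Log2(FPKM + 1) of each gene minus its mean over the 6 libraries, as colour from blue (lower) to red (higher), for the 9 meningeal genes (top) and 23 of the 24 other meningeal genes tested (bottom, ordered by their range). Control 1 is blue for Ptgds, Slc6a13, Aldh1a2, Slc6a20a, Slc22a8, Slc13a4 and Cdh1, which are redder in controls 2 and 3 except for Aldh1a2.

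Genes of the same families and pathways were also read from lists. These lists include the members themselves, so their counts and medians partly repeat the values above. The counts at an unadjusted p under 0.05 stand beside 10.5% of all tested genes. Zic5, another Zic gene, had 2.63, 3.71 and 2.69 FPKM in the 3 controls and 2.88, 2.61 and 1.87 FPKM in the 3 labelled mutant, with groups that overlapped (BH-adjusted p = 0.719, limma). Of 14 forkhead genes, 10 were tested and 0 passed in limma (2, Foxd1 and Foxs1, at an unadjusted p under 0.05, and a median of -0.17). Foxs1, a forkhead gene of pericytes, was the 1 of them with all libraries labelled mutant above the controls, at 4.33 ± 0.30 and 6.05 ± 0.73 FPKM (SD, n = 3 each; BH-adjusted p = 0.178, limma).

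In the retinoic acid pathway, 18 of 19 genes were tested and 0 passed in limma (5 at an unadjusted p under 0.05; median -0.12), and 14 had a negative change where Aldh1a2 had a positive one. Aldh1a1, another retinaldehyde dehydrogenase, had 8.47, 15.4 and 7.27 FPKM in the 3 controls and 5.40, 4.36 and 3.25 FPKM in the 3 labelled mutant (BH-adjusted p = 0.208, limma). Crabp1, a carrier of retinoic acid in the cell, had 4.23 ± 0.29 and 2.96 ± 0.20 FPKM (SD, n = 3 each; BH-adjusted p = 0.12, limma, and 0.0474 to 0.325 over the alternative fits). Control 1 was the lowest library for 3 of the 18, namely Aldh1a2, Aldh1a3 and Rbp4, of which Aldh1a3, a further retinaldehyde dehydrogenase, had 3.09, 5.49 and 5.61 FPKM in the 3 controls and Rbp4, the retinol carrier of blood, 9.49, 21.5 and 15.3 FPKM.

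In the prostaglandin D2 pathway, 11 of 12 genes were tested and 0 passed in limma (1 at an unadjusted p under 0.05; median 0.01). Ptgs1, the cyclooxygenase upstream of Ptgds, ran only from 8.13 to 9.85 FPKM, and Hpgds, the other prostaglandin D synthase, from 2.57 to 4.23 FPKM. Hpgd, which breaks prostaglandins down, had 20.2 ± 3.23 FPKM in the 3 controls and 33.5 ± 1.59 FPKM in the libraries labelled mutant (SD, n = 3 each), with no overlap (BH-adjusted p = 0.0588, limma, and 0.029 to 0.202 over the alternative fits). Slco2a1, a prostaglandin transporter, had 6.76 ± 0.34 and 7.94 ± 0.85 FPKM (SD, n = 3 each; BH-adjusted p = 0.482, limma). Of 8 genes of GABA and taurine transport and synthesis, 5 were tested and 0 passed in limma, also without adjustment. The median of -0.19 was the value of Slc6a13 itself. Abat, a GABA-degrading enzyme, had means of 7.25 and 6.29 FPKM, Slc6a11, a GABA transporter of glia, 2.65 and 1.48 FPKM, and the taurine transporter gene Slc6a6 69.8 and 72.9 FPKM for controls and libraries labelled mutant.

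Markers of tissue that could come with the skull were read beside these values, and their part in the results was not tested. The summed FPKM of 20 genes of neural tissue, where Zic genes are also known, was 120 to 131 in controls and 58.0 to 202 in the libraries labelled mutant, with control 1 at 120. Its most abundant members were Gap43 and Tubb3. In library 2 labelled mutant, where the Zic and Fox genes of the 9 were lowest, the neural genes went both ways. Tubb3 had 59.2 FPKM there and Stmn2 26.9 FPKM, against 6.98 to 11.1 FPKM for Stmn2 in controls. Snap25 had 3.64 FPKM there, against 4.82 to 9.48 FPKM in controls, and Slc1a3 4.62 FPKM, against 5.68 to 7.32 FPKM. Of the 15 tested neural genes 0 passed in limma, with 1 at an unadjusted p under 0.05 and a median of -0.20. Slc1a3 and Ttyh1 had the smallest p (adjusted p = 0.232 and 0.544 in limma). Of 10 genes of the choroid plexus, which also makes Ptgds, 5 were tested, and the sum of 110 to 122 FPKM in the 3 controls and 112 to 117 in the libraries labelled mutant was mostly Aqp1, a water channel also found in vessels. The defining markers were low in every library, with Ttr at 0.77, 6.28 and 4.73 FPKM in the 3 controls and 1.64, 5.43 and 0.81 FPKM in the 3 labelled mutant, Folr1 at 0.81 FPKM or less and Kl at 0.38 FPKM or less. Of the 5 tested, 0 passed, also without adjustment (median -0.06), and Otx2 and Clic6 had the smallest p (adjusted p = 0.614 and 0.843 in limma).

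Skeletal muscle genes, led by Acta1 and Myl1, summed to 20644, 12569 and 14546 FPKM in the 3 controls and to 13748, 18244 and 10815 FPKM in the 3 labelled mutant, so control 1 held the most. None of the 10 passed in limma, also without adjustment (median -0.12). In 12 measured cartilage genes, 4 fell in limma (Matn1, Col9a3, Ucma and Lect1, BH-adjusted p from 0.0166 to 0.0328), and sums were 1074 to 2169 FPKM in the 3 controls and 492 to 661 in the libraries labelled mutant, with Col2a1 and Col11a1 the most abundant. Without control 1 these 4 calls were lost in limma, at a BH-adjusted p of 0.0599 for Ucma, 0.0717 for Matn1 and 0.0974 for Lect1 and Col9a3. In 12 genes of bone-forming cells, led by Col1a1 and Col1a2, Ibsp rose (BH-adjusted p = 0.0306, limma, but 0.0974 without control 1), and sums were 21214 to 23707 and 21956 to 29940 FPKM. In 10 vessel genes, Emcn rose (BH-adjusted p = 0.0476, limma, but 0.154 without control 1), and sums were 359 to 362 and 373 to 383 FPKM. In 15 suture genes, led by Prrx1 and Prrx2, 0 passed in limma (6 at an unadjusted p under 0.05, against 10.5% of all tested genes), with a median of -0.31 and 12 below 0, against 49.5%. The smallest p there belonged to Msx2 (adjusted p = 0.217) and Axin2 (BH-adjusted p = 0.237, limma). The suture sums were 435, 502 and 445 FPKM in the 3 controls and 398, 376 and 477 FPKM in the 3 labelled mutant. They were lowest in library 2 labelled mutant, as were the Fox and Zic genes of the 9 and the cartilage sum. The muscle, bone-forming and vessel sums were lowest in other libraries. Lists of inner ear, skin and melanocyte genes had 0 genes past the threshold in limma. In that fit 3 of 6, 2 of 6 and 1 of 3 had an unadjusted p under 0.05, against 10.5% of all tested genes. The inner ear sum was 31.4 to 119 FPKM in controls and 16.3 to 27.03 FPKM under the mutant label (median -1.21). For all 6 tested inner ear genes every control lay above every library labelled mutant, as for 6.79% of all tested genes. Gjb2 and Gjb6 of the inner ear list are also on the list of other meningeal genes. Both are among the 5 there with an unadjusted p under 0.05 in limma. The skin sums were 21.3 to 31.0 and 16.3 to 26.03 FPKM (median -0.42), and the melanocyte sums 6.43 to 11.9 and 4.86 to 7.51 FPKM (median -0.02). In the inner ear list Oc90 reached 56.6 FPKM in control 2 and 1.00 or less elsewhere. Epcam, of the skin list, had 2.84, 8.91 and 5.50 FPKM in the 3 controls and 0.78, 1.34 and 0.60 FPKM in the 3 labelled mutant (BH-adjusted p = 0.1001, limma, and 0.0396 without control 1).

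The sex of the libraries was mixed in both groups, and its part in the results was not tested. Xist was 42.5 to 43.0 FPKM in controls 1 and 3 and library 1 labelled mutant and under 0.05 FPKM elsewhere, and the Y-linked gene Ddx3y was 12.4 to 12.8 FPKM in the other 3 libraries and 0 in these.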

How the data were processed

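Values were deposited by the authors as FPKM, 1 table per library, and used as deposited. The unit was taken from Cufflinks, which the submitters' processing notes name with TopHat2 2.0.13, Bowtie2 2.2.3, SAMtools 0.1.19, Cufflinks 2.2.1 and the mm10 build. Their options, annotation and use of strand are not given in the sources used here, nor are read totals or any later normalization. Median-of-ratios factors ran from 0.999 to 1.01. Groups and replicate numbers come from the sample titles.

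Genes whose mean reached 1 FPKM were fitted on log2(FPKM + 1), a scale that understates changes of low genes, with limma 3.58.1 in R 4.3.3 (lmFit, eBayes with trend), group as the only term, two-sided, with Benjamini-Hochberg adjustment over 13180 genes at 0.05. SDs and ratios of means are of FPKM. Exact permutation tests of single genes used all 20 assignments of libraries to groups. On simulated data with 200 of 13180 genes changed in each of 10 simulations, the fit recovered 59.0% of 1.5-fold, 87.6% of 2-fold and 96.4% of 4-fold changes of FPKM + 1, and 4.43% of calls were false. These shares are over all tested genes, with a median log2 SD within groups of 0.11, against 1.58 for Ptgds and 0.96 for Slc6a13. They do not apply to genes that vary so much. Changes under 1.5-fold, as seen for the Fox and Zic genes, were not simulated.

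The genes, lists and tests were chosen with earlier results of these data known. Named genes are the 9, and in each list those past the threshold, the 2 with the smallest p and, for other cell types, the 2 most abundant, plus the 3 most alike to each of the 9 that spans at least 1 log2 unit. Other names were chosen after their values were seen, as was the pineal list. Some genes that these rules name are not reported here. Of the list entries, Cnmd matched only under its older name Lect1. Promoter sequences come from RefSeq on GRCm38.p6, where 7 of the 9 genes matched, and gene spans from GENCODE M21.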

Additional observations from a re-analysis of the deposited data

How the results depend on the processing

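None of the 9 genes passed in any of the 15 alternative fits, whose lowest adjusted p for a member was 0.131 (limma with Benjamini-Hochberg adjustment). The direction held in 130 of 135 member values. The 5 exceptions were Ptgds and Slc6a13 in fits lacking a library, where the log2 change ran from -1.53 without control 1 to 0.35 without control 2 for Ptgds (0.34 without control 3), and from -0.95 to 0.19 for Slc6a13 (0.17 without control 3, 0.02 without library 3 labelled mutant). The cause was not tested. Of the other meningeal genes, 1 (Ngfr) passed with array weights and 0 in the other fits.

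Over all genes, 69 were higher and 11 lower. These counts were 152 and 31 with array weights, 44 and 6 without the filter on low values, 23 and 2 with the replicate block, and 15 to 34 and 1 to 12 in fits lacking 1 library. What the replicate numbers mark is not stated. Deviations from group means of same-numbered libraries correlated at 0.02, -0.07 and 0.02. Those of libraries with unlike numbers correlated at -0.06 to 0.05, so these values cannot tell whether the libraries were paired. Under the block 0 of the 9 passed. Other scalings, pseudocounts and filters kept the counts within 1.5 times. Without read totals, no counting error can be given for low genes such as Slc6a13.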

Other observations

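Genes of the pineal gland, which lies below the skull and is joined to the meninges, differed widely between libraries. The list was written after values of some of its genes were seen, so no test is given. Crx, the photoreceptor and pineal homeobox factor, had 2.73, 7.998 and 7.25 FPKM in the 3 controls and 8.35, 0.33 and 0.03 FPKM in the 3 labelled mutant. Tph1, the first enzyme of serotonin synthesis, had 4.65, 17.8 and 13.7 FPKM in the 3 controls and 18.4, 2.14 and 1.10 FPKM in the 3 labelled mutant. Sag, the visual arrestin gene, had 3.69, 11.4 and 9.96 against 9.19, 0.53 and 0.39 FPKM. Aanat, which makes the precursor of melatonin, had 1.51, 2.37 and 2.04 FPKM in the 3 controls and 2.25, 0.16 and 0 FPKM in the 3 labelled mutant. The 9 genes of the list, which include Otx2 of the choroid plexus list and Neurod1 of the neural list, summed to 18.7, 62.0 and 49.6 FPKM in the 3 controls and to 55.9, 4.30 and 1.81 FPKM in the 3 labelled mutant.

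The pineal genes and the meningeal genes Ptgds and Slc6a13 did not have the same lowest library. Libraries 2 and 3 labelled mutant were lowest in the pineal list, and control 1 was lowest in Ptgds. Control 1 had 30.2% of the pineal sum of control 2 and 7.15% of its Ptgds.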
